A study of Homo sapiens with 6 samples.

Results

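The 10 genes described here read out Wnt/beta-catenin signalling: CTNNB1, which encodes beta-catenin, and its transcriptional targets or partners AXIN2, LGR5, NKD1, NOTUM, RNF43, ZNRF3, TCF7, SP5 and GLUL. Genes were taken by matching the Ensembl identifier of each entry in the count table, with its version removed, to these symbols, which found 10 of 10 symbols among the 20422 genes of the table. RNA-Seq was performed on HepG2, an established human liver cancer cell line, in 3 control samples (NC) and 3 samples overexpressing the microprotein APPLE, encoded by the lncRNA ASH1L-AS1, with a Flag tag (ORF-Flag). The sample labels describe transfection of a vector plasmid in NC and of an overexpression plasmid in ORF-Flag. The methods of the study instead describe lines infected with lentiviral vectors and kept under puromycin selection, with a construct that carries the 5′-UTR of the lncRNA ahead of the tagged ORF, so both accounts of delivery are given here. Nothing in the sources used here tells if replicate samples came from separate cultures, so p-values measure only the spread between these samples, which may be technical. Libraries held 20081203, 24907524 and 30088457 counts in NC and 26866148, 17494668 and 27015836 counts in ORF-Flag. The expression of ASH1L-AS1 itself was not analysed here and gave no check of the labels.

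In the canonical Wnt pathway, a cytoplasmic destruction complex built on Axin and APC marks beta-catenin for degradation until Wnt ligands engage Frizzled and LRP receptors at the cell surface. Stabilised beta-catenin then enters the nucleus and activates genes bound by TCF/LEF factors, and many of these targets feed back on the pathway as inhibitors. In the liver the pathway sets the gene programme of hepatocytes around the central vein, and CTNNB1 is frequently mutated in liver cancer, HepG2 being known for a heterozygous in-frame deletion that removes residues needed for degradation. Counts per gene do not separate the mutant from the normal allele, so the mutation itself was not checked in these data.

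The identity of the line was checked with marker genes. All 11 hepatocyte and HepG2 markers were detected and tested, and 1 was called at an adjusted p below 0.05 by edgeR, against 4.45% of all genes tested. This was FGB, on the higher side, whose call was lost under 5 of 13 other settings, and at an unadjusted p below 0.05 there were 3 higher and 1 lower. The 11 markers include albumin (ALB) at 7036 ± 280.4 counts-per-million (CPM; mean ± SD, n = 3) in NC and 7434 ± 148 CPM in ORF-Flag. The fetal liver protein AFP, named after its values were seen, stood at 730.3 ± 22.0 CPM in NC and 747 ± 12.5 CPM in ORF-Flag. Not all markers were abundant. TTR, also named after its values were seen, had only 116 to 169 counts a library, against 129409 to 215625 for ALB. The cause of its low counts was not tested. Of 13 markers of immune, endothelial, fibroblast, squamous and muscle cells, PTPRC, CD3E and DCN had 0 counts in all 6 libraries, and only CD68, PECAM1 and PDGFRB were high enough to test. The summed level of these 13 genes was 48.6, 42.8 and 44.3 CPM in NC and 45.4, 43.5 and 47.5 CPM in ORF-Flag. CD68, a lysosomal glycoprotein, was the most abundant of them at 39.3 ± 2.92 CPM in NC and 38.4 ± 1.42 CPM in ORF-Flag. None of the 3 tested markers was called by edgeR, DESeq2, limma-trend or limma-voom, and 1 of the 3 had an unadjusted p below 0.05, against 18.5% of all genes tested. This was the endothelial marker PECAM1 at 4.36 ± 0.474 CPM in NC and 5.70 ± 0.380 CPM in ORF-Flag (adjusted p = 0.096). The part of other cell types in the results was not tested.

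Of the 10 genes, 1 differed between ORF-Flag and NC. NOTUM, a secreted inhibitor of Wnt ligands, fell by 20.2% in ORF-Flag, and the other 9 genes did not pass the test at an adjusted p below 0.05 (edgeR's quasi-likelihood test with Benjamini-Hochberg adjustment over all 12386 genes tested). All 10 genes passed the filter on low counts. Among all genes tested, 4.45% were called, 1.98% lower and 2.47% higher in ORF-Flag, and beside these shares a count of 1 of 10 is read as a result about NOTUM and not about the 10 genes together. At an unadjusted p below 0.05, 3 of the 10 genes (NOTUM, SP5 and ZNRF3) were lower in ORF-Flag and 0 were higher, against 18.5% of all genes tested in either direction, 9.22% on the lower and 9.29% on the higher side. With a fold change above 1.2 required as well, 1 of the 10 genes (NOTUM) remained, against 4.54% of all genes tested. The 3 ORF-Flag libraries lay below the 3 NC libraries for 3 genes (NOTUM, ZNRF3 and CTNNB1) and above them for 0, against 22.4% of all genes tested in either direction, 10.9% below and 11.5% above. The fitted log2 fold change was below 0 for 7 genes and above 0 for 3, with a median of -0.03 beside -0.0012 over all genes tested. This tally depends on single libraries, since the sign turned for NKD1 (to 0.0037) without NC replicate 1, and for TCF7 (to 0.029 and 0.0075) and RNF43 (to -0.035 and -0.041) without NC replicate 3 and without ORF-Flag replicate 1. The summed level of the 10 genes was 1408, 1372 and 1367 CPM in NC and 1344, 1324 and 1331 CPM in ORF-Flag.

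**Figure D1:**
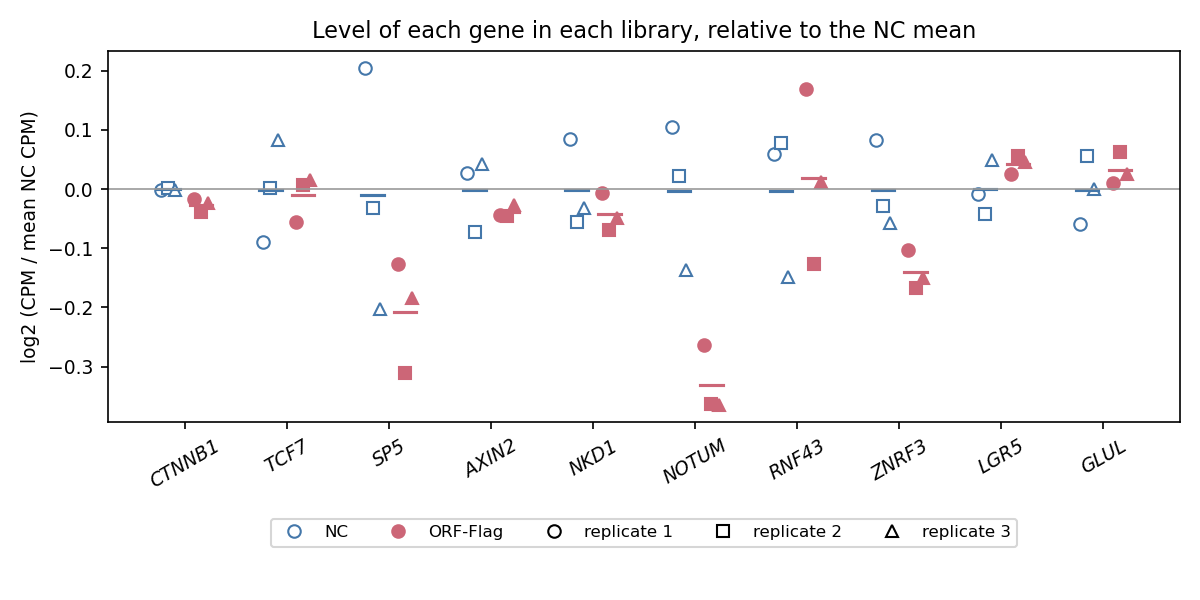
Level of each of the 10 genes in each library as log2 of its CPM over the mean CPM of the 3 NC libraries (vertical axis), with open blue marks for NC, filled red marks for ORF-Flag, a shape for each replicate number and a short line at each group's mean of the plotted values. For NOTUM the 3 ORF-Flag libraries (108, 108 and 115 CPM) all lie below the 3 NC libraries (126, 141 and 149 CPM).

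CTNNB1 encodes the protein that carries the signal to the nucleus and also links cadherins to the cytoskeleton at cell junctions. The gene lies at chr3:41194741-41260096 on the plus strand (GRCh38, GENCODE release 29). Its level was 473, 474 and 473 CPM in NC and 468, 460.5 and 465 CPM in ORF-Flag. The NC libraries were nearly identical, with an SD of 0.508 CPM, and all 3 ORF-Flag libraries lay just below them, with an SD of 3.64 CPM. Counting error alone on the 9562 to 14154 counts of NC is wider than that NC spread. The lack of overlap is therefore not read as a result. The difference was a log2 fold change of -0.026 (SE 0.031, 95% interval -0.089 to 0.037), which did not pass the test (adjusted p = 0.72). On the linear scale that interval runs from -6.01% to 2.60%, so a change in CTNNB1 as large as that in NOTUM lay outside it.

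TCF7 encodes a DNA-binding factor of the TCF/LEF family, through which beta-catenin reaches its targets, and is itself a target. It lies at chr5:134114711-134151865 on the plus strand. TCF7 ranged from 25.02 to 28.2 CPM in NC and from 25.6 to 26.9 CPM in ORF-Flag, on 466 to 844 counts a library. The groups overlapped, and the log2 fold change was -0.016 (SE 0.063, adjusted p = 0.93). Its sign turned without NC replicate 3 (0.029) and without ORF-Flag replicate 1 (0.0075).

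SP5 encodes a zinc finger transcription factor of the Sp family that is known as a direct target of beta-catenin and lies at chr2:170715351-170718078 on the plus strand. Its level was 58.9, 49.95 and 44.4 CPM in NC and 46.8, 41.2 and 45.0 CPM in ORF-Flag. NC replicate 1 was highest, while NC replicate 3 fell within the range of ORF-Flag, so the groups overlapped. Group levels were 51.1 ± 7.31 CPM in NC and 44.3 ± 2.85 CPM in ORF-Flag, and the spread within NC was the widest, relative to its mean, of the 10 genes (coefficient of variation 14.3%). The log2 fold change of -0.19 (SE 0.071, 95% interval -0.34 to -0.043) did not pass the test (adjusted p = 0.14). It was -0.29 (adjusted p = 0.0025) without NC replicate 3, which passed, and -0.082 (adjusted p = 0.55) without NC replicate 1. With no filter on low counts it was -0.19 (adjusted p = 0.010).

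The promoters were searched for 7-base TCF/LEF motifs because TCF/LEF factors are the DNA-binding partners of beta-catenin. RefSeq promoters (GRCh38.p14, from 250 bases before to 50 bases after the start site) were given for 5 of the 10 genes, CTNNB1, RNF43, TCF7, SP5 and GLUL, and not for AXIN2, LGR5, NKD1, NOTUM and ZNRF3. The searched motifs share their first 5 letters and were read on both strands. Among 35116 promoters of this length, CTTTGAT occurred in 2.62%, the motif CTTTGAA in 4.43%, the motif CTTTGTT in 5.20% and the motif CTTTGTA in 2.77%, and 13.8% of promoters held at least 1 match. The promoter of SP5 held 3 matches, starting 148, 109 and 84 bases before the start site, a number reached by 63 promoters (0.179%). The second of 2 TCF7 promoters held 1 match, 50 bases before its start site, and no match was found in the other TCF7 promoter, in the CTNNB1 promoter, or in the 2 promoters each of RNF43 and GLUL. The 4 matches are shown in plus strand sequence with 10 bases on each side and the match in capitals, at chr2:170715179-170715205, chr2:170715218-170715244 and chr2:170715243-170715269 for SP5 and chr5:134123558-134123584 for TCF7. A match is a description of the sequence, and binding was not measured.
SP5 at 148 bases: gctttgtggaTTCAAAGgatttgcttt
SP5 at 109 bases: agccgctattCTTTGATgattgggtag
SP5 at 84 bases: agcggcaaacTTCAAAGccataaatct
TCF7 at 50 bases: gccccactggAACAAAGgaggagagag

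NOTUM encodes a secreted enzyme that removes the lipid from Wnt ligands and so inactivates them outside the cell, and it lies at chr17:81952507-81961840 on the minus strand. Its level was 149, 141 and 126 CPM in NC and 115, 108 and 108 CPM in ORF-Flag. Each ORF-Flag library lay below each NC library, and within NC replicate 1 was highest and replicate 3 lowest. Group levels were 139 ± 11.6 CPM in NC and 110.2 ± 4.49 CPM in ORF-Flag (n = 3 each), on 1875 to 3772 counts a library. NOTUM therefore fell to 0.798 of its NC level (95% interval 0.746 to 0.855), a log2 fold change of -0.32 (SE 0.048). The adjusted p was 0.00014, and all 3 ORF-Flag libraries showed the direction. The call was made under each of 13 other settings, including each library left out in turn, with log2 fold changes from -0.39 to -0.27 and adjusted p from 7.1e-14 to 0.0033. In bulk RNA, fewer cells with NOTUM transcript and less transcript per cell cannot be told apart. No exon bases of NOTUM were shared with another annotated gene.

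ZNRF3 and RNF43 encode related membrane ubiquitin ligases that clear Frizzled receptors from the cell surface and so dampen Wnt signalling. ZNRF3 lies at chr22:28883592-29057487 on the plus strand, and its level was 72.3, 67.0 and 65.6 CPM in NC and 63.6, 60.9 and 61.6 CPM in ORF-Flag. The groups did not overlap, and NC replicate 1 was again the highest and NC replicate 3 the lowest of NC. Group levels were 68.3 ± 3.54 CPM in NC and 62.0 ± 1.43 CPM in ORF-Flag. The log2 fold change of -0.135 (SE 0.046, 95% interval -0.23 to -0.040) did not pass the test (adjusted p = 0.10). Without NC replicate 3 it was -0.16 and passed (adjusted p = 0.031), and across the 13 other settings the adjusted p ranged from 0.031 to 0.28.

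RNF43, at chr17:58352500-58417595 on the minus strand, was the least abundant of the 10 genes. It ranged from 4.24 to 4.96 CPM in NC and from 4.31 to 5.29 CPM in ORF-Flag, on only 75 to 142 counts a library. The groups overlapped, and the log2 fold change was 0.041 (SE 0.136, adjusted p = 0.92) with a 95% interval from -0.24 to 0.32, the widest of the 10 genes. The sign turned without NC replicate 3 (-0.035) and without ORF-Flag replicate 1 (-0.041). In the annotation, 59.5% of the exon bases of RNF43 were shared with SUPT4H1, which had 1039 to 1769 counts a library, or with AC004687.2, which had 0. How shared reads were counted is not given in the sources used here, so the level of RNF43 is uncertain.

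AXIN2 encodes a scaffold of the destruction complex and is widely used as a reporter of beta-catenin activity. The gene lies at chr17:65528563-65561647 on the minus strand. Its level was 123, 115 and 124 CPM in NC and 117, 117 and 119 CPM in ORF-Flag. The ORF-Flag libraries lay within the range of NC, since NC replicate 2 was the lowest of the 6. The log2 fold change was -0.0385 (SE 0.038, 95% interval -0.12 to 0.041) and did not pass the test (adjusted p = 0.66). With a library left out in turn it lay between -0.075 and -0.015, and no fit called the gene. Its exon bases were shared by 25.2% with AC004805.1, which had 0 counts in all 6 libraries. Since the counting of shared reads is not given, AXIN2 reads over these bases may be missing from its level. The 3 genes whose pattern over the 6 libraries was most like that of AXIN2 were TADA2B, RACGAP1 and MINDY3, with root mean square differences of 0.118, 0.178 and 0.185 between log2 CPM values scaled to unit SD, among 12385 genes compared. With only 6 libraries and this many genes, close matches can arise without any link. Shared regulation was not tested.

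NKD1 encodes a cytoplasmic protein that binds Dishevelled and inhibits signalling, and lies at chr16:50548330-50649249 on the plus strand. NKD1 ranged from 160.1 to 176 CPM in NC and from 159 to 166 CPM in ORF-Flag. The groups overlapped, with NC replicate 1 the highest of the 6 libraries, and the log2 fold change was -0.0385 (SE 0.0385, adjusted p = 0.66). Without NC replicate 1 it was 0.0037, so its sign rested on that library.

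LGR5 encodes a receptor for R-spondins, the secreted proteins that amplify Wnt signals, and marks stem cells of the gut and other tissues. It lies at chr12:71439770-71586310 on the plus strand. Its level was 171, 167 and 178 CPM in NC and 175.5, 179 and 178 CPM in ORF-Flag. The groups overlapped through NC replicate 3, and the log2 fold change was 0.041 (SE 0.035, 95% interval -0.031 to 0.11, adjusted p = 0.59). It lay between 0.019 and 0.0675 with a library left out in turn, uncalled in each fit.

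GLUL encodes glutamine synthetase, which makes glutamine from ammonia in the hepatocytes next to the central vein and is a marker of beta-catenin activity in liver tumours. It lies at chr1:182381704-182392206 on the minus strand. GLUL ranged from 154 to 167 CPM in NC and from 161 to 167 CPM in ORF-Flag. The groups overlapped, and the log2 fold change was 0.031 (SE 0.037, 95% interval -0.045 to 0.11, adjusted p = 0.73). Leaving out a library in turn gave values between 0.0035 and 0.059, with no call.

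**Figure D2:**
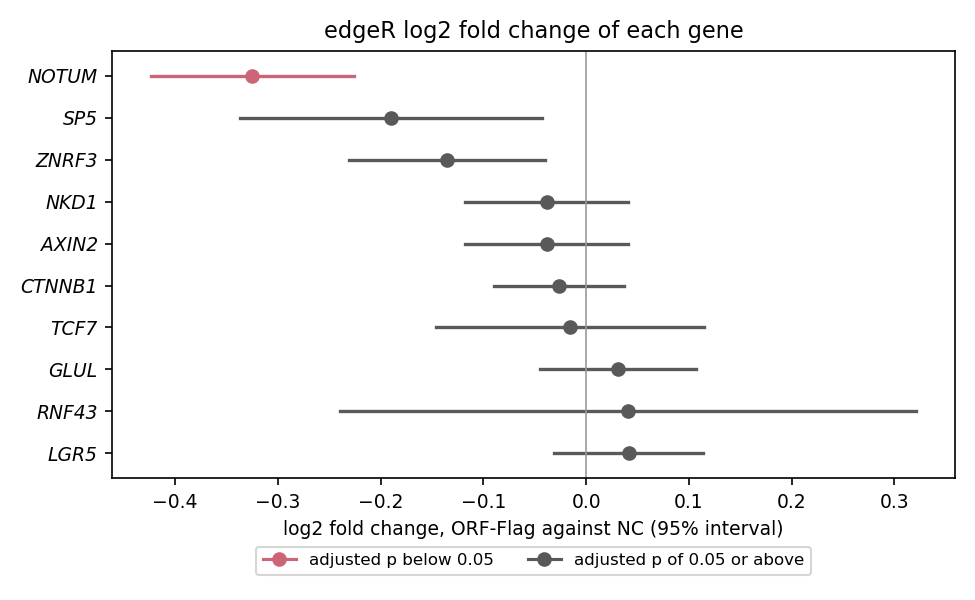
edgeR log2 fold change of each of the 10 genes, ORF-Flag against NC (horizontal axis), with points for the estimate, bars for the 95% interval, red for an adjusted p below 0.05 and grey for others. NOTUM (-0.32) is the only gene in red, the intervals of SP5 and ZNRF3 also lie below 0, and the interval of RNF43 (-0.24 to 0.32) is the widest on 75 to 142 counts a library.

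To compare genes with each other, CPM was divided by the length of all annotated exons in kilobases. On this scale the mean level over the 6 libraries was 41.2 CPM per kilobase for NOTUM, 39.3 for CTNNB1 and 33.3 for LGR5. SP5 followed at 23.2 CPM per kilobase, AXIN2 at 22.8 and GLUL at 17.95. The lower end of the order held NKD1 at 9.42 CPM per kilobase, ZNRF3 at 9.35, TCF7 at 2.64 and RNF43 at 0.631. Neighbours in this order whose ranges over the 6 libraries overlapped were NOTUM and CTNNB1, SP5 and AXIN2, and NKD1 and ZNRF3. NOTUM, for its part, stood at 41.7 to 49.4 CPM per kilobase in NC, above CTNNB1 in each NC library (39.6 to 39.7), and at 35.6 to 38.2 in ORF-Flag, below CTNNB1 in each ORF-Flag library (38.6 to 39.2). Against the 12345 tested genes with a length, the levels of NOTUM, CTNNB1 and LGR5 lay at percentiles 92.6, 92.2 and 90.9. The levels of SP5, AXIN2 and GLUL lay at percentiles 86.4, 86.2 and 82.1, those of NKD1 and ZNRF3 at 67.95 and 67.8, and those of TCF7 and RNF43 at 36.2 and 14.3. The exon length counts every annotated exon, used in these cells or not, so levels of long genes may be understated. RNF43 and AXIN2 also share exon bases with other genes, which makes their places in this order uncertain.

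**Figure D3:**
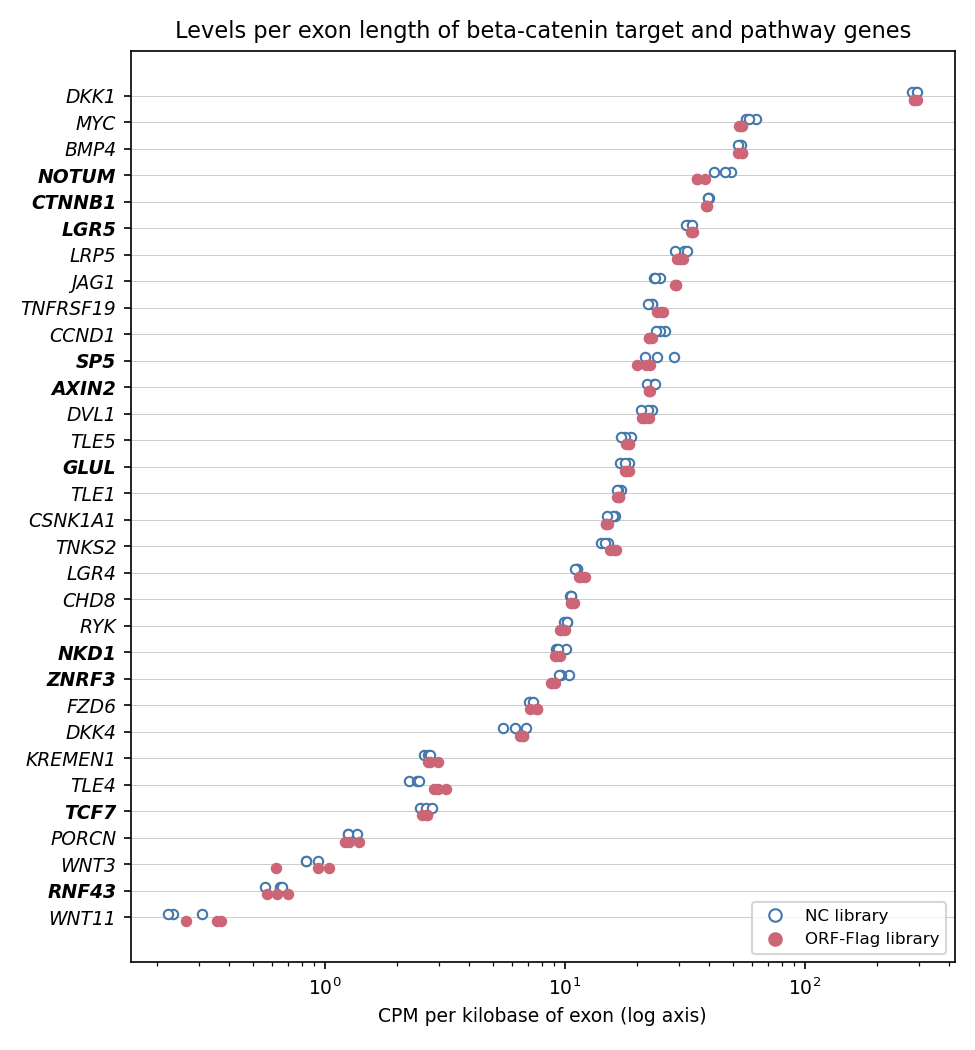
Level per exon length of the 10 genes (bold) and of tested genes of the pathway lists named by rule, in CPM per kilobase on a log axis, with open blue points for the 3 NC libraries and filled red points for the 3 ORF-Flag libraries. Among the plotted genes DKK1 stands highest with a mean of 289 CPM per kilobase. Hepatocyte markers such as ALB (2142) were higher and are not plotted. NOTUM is higher in NC (41.7 to 49.4) than in ORF-Flag (35.6 to 38.2).

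Other genes of the pathway were taken from lists written from general knowledge. Of 19 Wnt ligand genes, WNT2, WNT3A, WNT5A, WNT7A and WNT16 had no count in any library, and with these 5 included 10 had at most 3 counts in every library. Of the 19, only WNT3 and WNT11 were tested. WNT3 stood at 3.75 ± 0.251 CPM in NC and 3.76 ± 0.943 CPM in ORF-Flag. WLS, which carries Wnt proteins to the cell surface, had 0 or 1 count in each library. All 4 R-spondin genes (RSPO1 to RSPO4) had 0 counts in every library, which allows a level of up to 0.1002 to 0.172 CPM depending on the library. This limit covers counting error only, and a loss of reads in mapping or counting was not tested. Counts of 0 or near 0 are therefore not read as absence of a transcript. SKP1, which shares 3.0% of its exon bases with TCF7 or AC104109.3, had only 2 to 13 counts a library. Only 2 ligands, 1 gene of ligand release, 1 of R-spondins with their receptors, and 5 of secreted antagonists with their co-factors were tested. Among these, 0 were called by edgeR, DESeq2, limma-trend or limma-voom, against 4.45% of all genes tested by edgeR, and 0 had an unadjusted p below 0.05 in edgeR, against 18.5%. LGR4, the relative of LGR5, stood at 70.7 ± 0.745 CPM in NC and 74.6 ± 2.33 CPM in ORF-Flag (adjusted p = 0.31).

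Unlike NOTUM, the secreted antagonist DKK1, which blocks LRP receptors and is itself a target, did not pass the test. DKK1 stood at 636 ± 16.7 CPM in NC and 638 ± 10.5 CPM in ORF-Flag (log2 fold change 0.0044, SE 0.032, adjusted p = 0.96), and the difference from the change in NOTUM was not tested. Of 15 receptor genes, 9 were tested and 0 were called by any of the 4 tools, with LRP5 the highest per kilobase at 190.4 ± 11.8 CPM in NC and 186 ± 4.79 CPM in ORF-Flag. At an unadjusted p below 0.05 there was 1 of the 9 receptors, against 18.5% of all genes tested. This was FZD4, named after its values were seen, at 29.5 ± 1.12 CPM in NC and 25.8 ± 0.285 CPM in ORF-Flag (adjusted p = 0.063), with 18.9% of its exon bases shared with PRSS23. All 16 genes of the destruction complex and Dishevelled were tested, and 0 were called by any of the 4 tools. At an unadjusted p below 0.05 there were 2 of the 16, TNKS2 on the higher side (adjusted p = 0.083) and DVL2, named after its values were seen, on the lower side (adjusted p = 0.21), again against 18.5% of all genes tested.

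Of 18 TCF/LEF factors and nuclear partners, 15 were tested and 1 was called, against 4.45% of all genes tested. TLE4, a Groucho family co-repressor that binds TCF/LEF factors, rose from 19.5 ± 1.02 CPM in NC to 24.6 ± 1.35 CPM in ORF-Flag (log2 fold change 0.33, SE 0.068, adjusted p = 0.0051). All 3 ORF-Flag libraries lay above NC, and of 13 other settings only the fit that left out ORF-Flag replicate 1 ended the call (adjusted p = 0.053). At an unadjusted p below 0.05 there were 3 of the 15, all higher in ORF-Flag, against 9.29% of all genes tested on that side. All ORF-Flag libraries lay above NC in 3 of the 15 genes, against 11.5% of all genes tested. They were the same 3 genes, so this count is not a separate result. Beside TLE4 these were the acetyltransferase co-activators CREBBP, at 78.3 ± 2.46 CPM in NC and 85.6 ± 2.39 CPM in ORF-Flag (adjusted p = 0.079), and EP300, at 125 ± 1.47 and 133 ± 1.10 CPM (adjusted p = 0.16), both named after their values were seen. LEF1, another DNA-binding factor of the TCF7 family that was also named after its values were seen, had 3 to 8 counts a library and was not tested, and its mean level of 0.0419 CPM per kilobase stood below the 2.64 CPM per kilobase of TCF7.

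Of 20 other reported targets, 11 were tested, 2 rose and 2 fell, against 2.47% higher and 1.98% lower of all genes tested. Their median log2 fold change was 0.0145, beside -0.0012 over all genes tested. At an unadjusted p below 0.05 there were 3 higher and 3 lower, which added SOX4 (adjusted p = 0.23) on the higher and BAMBI (adjusted p = 0.11) on the lower side, both named after their values were seen, against 18.5% of all genes tested in either direction. JAG1, a Notch ligand, rose from 224 ± 7.83 CPM in NC to 269 ± 1.83 CPM in ORF-Flag (log2 fold change 0.26, SE 0.034, adjusted p = 2.5e-05), and was called under all 13 other settings. TNFRSF19, a receptor of the TNF family, rose by a log2 fold change of 0.14 (SE 0.037, adjusted p = 0.034). The cell cycle gene CCND1, which shared 10.3% of its exon bases with LTO1, had a log2 fold change of -0.14 (SE 0.039, adjusted p = 0.035) and the growth regulator MYC one of -0.13 (SE 0.037, adjusted p = 0.042). These 3 calls were lost under 3, 5 and 5 of the 13 other settings, with adjusted p of up to 0.22, 0.16 and 0.16, while the log2 fold changes over these settings ranged from 0.12 to 0.16 for TNFRSF19, from -0.17 to -0.11 for CCND1 and from -0.16 to -0.094 for MYC. Each was lost without ORF-Flag replicate 1 and without ORF-Flag replicate 3. TNFRSF19 was also lost without NC replicate 2, CCND1 without NC replicates 1 and 2 and ORF-Flag replicate 2, and MYC without NC replicate 1, without ORF-Flag replicate 2 and under limma-voom. The fits that left out a library called between 199 and 1058 of all genes, in place of 551. Named targets thus changed in both directions, and among the 10 genes the called change was that of NOTUM.

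**Figure D4:**
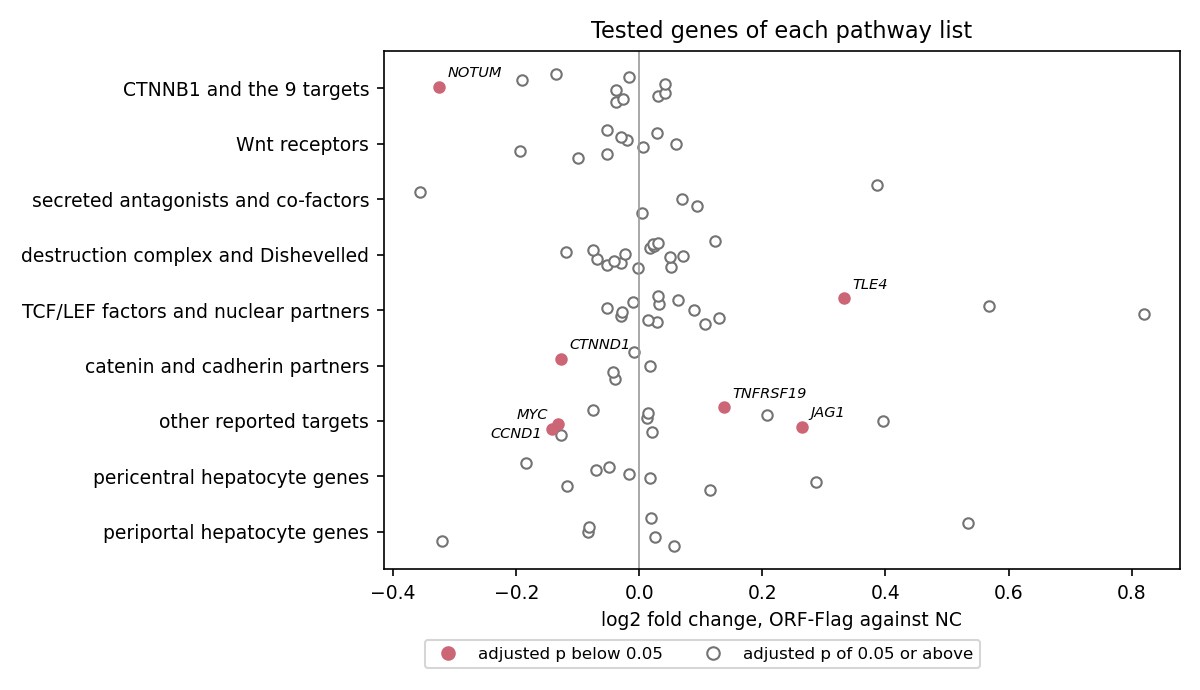
edgeR log2 fold change, ORF-Flag against NC (horizontal axis), of the tested genes of each list, 1 point a gene, red with its name for an adjusted p below 0.05 and open grey for others, spread vertically within a list only for legibility. Called genes lie on both sides of 0, with NOTUM (-0.32) lowest and TLE4 (0.33) highest among them.

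The comparison has 3 libraries a group, and leaving out NC replicate 3 raised the number of genes called from 1 to 3 of the 10, while 1058 genes in all were then called in place of 551. The cause of that shift was not tested.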

How the data were processed

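RNA was extracted with TRIzol and libraries were made with the VAHTS universal V10 kit, per the labels. The authors deposited raw read counts per gene. The submitters' processing notes name GRCh38, cutadapt 1.11, HISAT2 2.1.0, featureCounts 1.6.0 and edgeR, and strand setting, treatment of multi-mapping reads and annotation are not given in the sources used here. Symbols were matched for 20421 of 20422 identifiers.

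Counts were analysed as deposited in R 4.3.3 with edgeR 4.0.16 (filterByExpr, TMM, glmQLFit, glmQLFTest, Benjamini-Hochberg over 12386 genes). The SE was derived from the F statistic, and the script was tested on simulated data. CPM used library totals scaled by TMM factors, and 3 counts equalled 0.1002 to 0.172 CPM, which covers counting error only. Pairs of libraries within a group differed by more than sampling noise (chi-square per degree of freedom 2.39 to 5.23). Alternatives were DESeq2 1.42.0, limma-trend and limma-voom (limma 3.58.1), no TMM, no filter, at least 10 counts in every library, a block for the replicate number, single libraries left out in turn, and an unadjusted p below 0.05 with a fold change above 1.2. Genes named from the lists were those with an adjusted p below 0.05 (up to 5 a list) and the 3 with the highest CPM per kilobase. Other list genes were named after their values were seen. The genes and lists were chosen with earlier results of these data known.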

Additional observations from a re-analysis of the deposited data

How the results depend on the processing

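Under DESeq2, limma-trend, limma-voom, library totals without TMM, at least 10 counts in every library, the replicate number as a block, and an unadjusted p below 0.05 with a fold change above 1.2, 1 of the 10 genes was called, and 410, 594, 527, 537, 557, 731 and 562 of all genes, beside 551 in the comparison as reported. With no filter on low counts 2 of the 10 genes and 824 of all genes were called. SP5 was then the added gene (log2 fold change -0.19, adjusted p = 0.010). With a library left out in turn, between 1 and 3 of the 10 genes were called, and between 199 and 1058 of all genes. Ranges of the log2 fold change over these 6 fits were -0.29 to -0.082 for SP5, -0.16 to -0.094 for ZNRF3, -0.066 to 0.0037 for NKD1, -0.041 to 0.099 for RNF43 and -0.056 to 0.029 for TCF7. AXIN2 (-0.075 to -0.015), LGR5 (0.019 to 0.0675) and GLUL (0.0035 to 0.059) also moved by over 1.5 times, with no call. SP5 and ZNRF3 passed without NC replicate 3. The sign turned without NC replicate 1 for NKD1 (0.0037), and without NC replicate 3 and without ORF-Flag replicate 1 for RNF43 (-0.035 and -0.041) and TCF7 (0.029 and 0.0075). The cause was not tested.

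Calls in the lists with a library left out ranged from 0 to 2 for TCF/LEF partners, 1 to 5 for other targets, 0 to 1 for pericentral genes, 0 to 1 for catenin and cadherin genes and 0 to 2 for hepatocyte markers. DESeq2 called 2 hepatocyte markers in place of 1, and 1 pericentral gene was called with no filter.

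Deviations of replicates with the same number were only weakly correlated between the groups (r = 0.0666, 0.0266 and 0.0448, each positive), and 5 of 6 libraries correlated best with their own number, a hint from the data and not from the design. With the replicate number as a block, NOTUM had a log2 fold change of -0.33 (adjusted p = 1.4e-05), and 1 destruction complex gene and 1 pericentral gene were added. The block changed no call among the 10 genes. Depth limits RNF43 most, with 75 to 142 counts a library.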

Other observations

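Beta-catenin also acts at cell junctions, where 5 catenin and cadherin genes were tested and 1 was called, against 4.45% of all genes tested. CTNND1, which encodes the p120 catenin that stabilises cadherins at the membrane, had 257 ± 8.08 CPM in NC and 236 ± 3.95 CPM in ORF-Flag (log2 fold change -0.13, SE 0.034, adjusted p = 0.032, lower in 3 of 3 ORF-Flag libraries). The call was lost under 4 of 13 other settings, with an adjusted p of up to 0.18. CDH1 stood at 253 ± 0.853 CPM in NC and 247 ± 9.25 CPM in ORF-Flag (adjusted p = 0.60), CDH2 at 284 ± 3.34 and 276 ± 4.503 CPM (adjusted p = 0.54), and CTNNA1 at 396 ± 9.17 and 401 ± 9.56 CPM (adjusted p = 0.84).

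Genes of the zones of the liver lobule were read beside GLUL. Of 12 pericentral genes, 8 were tested and 0 were called by edgeR, DESeq2, limma-trend or limma-voom, with 1 at an unadjusted p below 0.05, against 18.5% of all genes tested. That gene, CYP27A1, which encodes a sterol hydroxylase of bile acid synthesis, had 159.7 ± 10.5 CPM in NC and 147 ± 3.15 CPM in ORF-Flag (log2 fold change -0.12, SE 0.041, adjusted p = 0.11). The pericentral genes not tested include CYP1A2, with 3 to 8 counts a library, and CYP2A6, with 0 to 4. CYP2E1 was tested on only 27 to 53 counts a library. These genes were named after their values were seen, and a change in them could be missed. Of 10 periportal genes, 7 were tested and 0 were called by any of these tools, with 0 at an unadjusted p below 0.05. The urea cycle gene ASS1 was the highest of them per kilobase, at 128 ± 1.04 CPM in NC and 130.0 ± 3.47 CPM in ORF-Flag. Of the 11 hepatocyte and HepG2 markers 1 was called, against 4.45% of all genes tested, the fibrinogen gene FGB, at 362 ± 18.8 CPM in NC and 399.5 ± 7.45 CPM in ORF-Flag (log2 fold change 0.14, SE 0.036, adjusted p = 0.023), and this call was lost under 5 of 13 other settings, with an adjusted p of up to 0.12. At an unadjusted p below 0.05 there were 3 higher and 1 lower of the 11, against 18.5% of all genes tested in either direction. Beside FGB these were ALB (log2 fold change 0.079, adjusted p = 0.21) and SERPINA1 (0.086, adjusted p = 0.13) on the higher side and APOB, named after its values were seen (-0.0725, adjusted p = 0.24), on the lower. All 3 ORF-Flag libraries lay above NC in 3 of the 11 markers, against 11.5% of all genes tested. They were FGB, ALB and SERPINA1, the markers already counted as higher, so this count is not a separate result.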
